A study of Mus musculus with 2 samples.

Results

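Basement membranes are thin sheets of extracellular matrix that underlie epithelia and endothelia and surround muscle, fat, nerve and pericytes. A network of type IV collagen and a network of laminin, a trimer of 1 α, 1 β and 1 γ chain, are joined by nidogens and by perlecan, a heparan sulphate proteoglycan that is also abundant around chondrocytes. SPARC is a secreted glycoprotein that binds collagens, including collagen IV, and is abundant in bone and cartilage. The 10 genes examined here encode these proteins, and were taken by name from the 21849 genes measured. They are Col4a1 and Col4a2 (collagen IV chains), Lama2, Lama4, Lamb1 and Lamc1 (laminin chains), Nid1 and Nid2 (nidogens), Hspg2 (perlecan) and Sparc. All 10 were found in both libraries.

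The cells were costal-cartilage-derived stem cells (CDSCs), isolated by enzymatic digestion from rib cartilage of newborn C57BL/6J mice, CD45.1 or ZsGreen, within 1 week of birth, and sorted as CD45- CD51+ (CD45 marks blood cells and CD51 is an integrin chain). Primary CDSCs formed 1 library and CDSCs cultured to passages 2 to 3 in minimum essential medium with serum formed the other. The labels name bone marrow as the tissue of both, and which mouse line or how many animals went into each library was not given in the sources used here. The comparison addresses whether CDSCs differ after expansion in culture.

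The assay counts unique molecular identifiers (UMIs), 1 for each captured transcript end. Barcodes with a minimum of 500 genes and 1000 UMIs, and with no more than 10% of UMIs from mitochondrial genes, were taken as cells, which kept 11746 of 11896 primary and 5338 of 10798 cultured barcodes. The filter therefore left out 1.26% of primary and 50.6% of cultured barcodes. The kept cells held 137148874 primary and 330129909 cultured UMIs, with medians of 10026.5 and 56864.5 UMIs per cell, and 15 kept barcodes occurred in both libraries. ZsGreen had 60957 counts in primary and 0 in cultured CDSCs, and Uty, on the Y chromosome, had 11 and 20195. The donor mice of the libraries were therefore not the same mixture, in mouse line or in sex. Chondrocyte markers reached 10 CPM (counts scaled to a common total per library) in 14 of 14 cases in primary and 3 of 14 in cultured CDSCs, and summed to 92900 and 1043 CPM. With 1 library per group no test was possible, and library, donor, donor sex and culture cannot be told apart. All intervals are exact 95% intervals that cover counting error only.

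The sequences around the starts of the genes are shown first, since the collagen IV pair shares its start while the laminin and nidogen partners lie apart. Col4a1 and Col4a2 lie head to head on chromosome 8, Col4a1 at chr8:11198423-11312826 on the minus strand and Col4a2 at chr8:11312805-11449287 on the plus strand (GRCm38). Their annotated starts overlap by 22 bases, chr8:11312805-11312826, printed here on the plus strand with a GC box (GGGCGG or its complement CCGCCC) in capitals.

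Col4a1 and Col4a2: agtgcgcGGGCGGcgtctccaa

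RefSeq windows from 250 bases before to 50 bases after the start (GRCm38.p6) were matched for 7 of the 10 genes. Searched on both strands, a GC box was in 35.7% of all 32851 such windows, a CCAAT box (CCAAT or ATTGG) in 37.4% and a TATA box (TATAAA or TTTATA) in 13.6%. The parts of the Lamb1, Nid1 and Lama2 windows that lie before the start and outside annotated exons are printed, because these genes showed the largest differences among the laminin and nidogen genes. Lamb1 is at chr12:31265043-31265233 (plus strand), Nid1 at chr13:13437352-13437550 (plus strand) and Lama2 at chr10:27616943-27617192 (minus strand, within the longer gene that GENCODE annotates), with GC and CCAAT boxes in capitals.

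Lamb1: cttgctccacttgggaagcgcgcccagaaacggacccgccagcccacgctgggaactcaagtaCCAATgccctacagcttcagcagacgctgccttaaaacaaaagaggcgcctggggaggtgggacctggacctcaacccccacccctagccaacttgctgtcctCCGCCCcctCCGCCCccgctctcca

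Nid1: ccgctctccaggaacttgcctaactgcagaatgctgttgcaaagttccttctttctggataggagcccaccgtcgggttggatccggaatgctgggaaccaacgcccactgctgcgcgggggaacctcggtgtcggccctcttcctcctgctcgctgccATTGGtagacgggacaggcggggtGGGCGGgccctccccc

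Lama2: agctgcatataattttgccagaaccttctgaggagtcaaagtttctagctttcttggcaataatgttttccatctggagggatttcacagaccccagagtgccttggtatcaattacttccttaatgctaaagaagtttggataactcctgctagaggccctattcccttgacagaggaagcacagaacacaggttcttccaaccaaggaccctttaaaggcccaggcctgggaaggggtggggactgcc

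The printed stretch of Lamb1 held 2 GC boxes and 1 CCAAT box, that of Nid1 held 1 of each, and that of Lama2 held none of the 3 motifs. Over the whole windows, Lama2 and Nid1 had 1 GC box each and Lamb1 had 2. Hspg2 had 5 GC boxes and no CCAAT box, whereas the Sparc window had none of the 3 motifs.

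The 10 genes did not move in 1 direction between primary and cultured CDSCs. Col4a1, Col4a2, Lamb1, Lamc1 and Nid1 were 2-fold or more higher in the cultured library, Lama2, Nid2 and Sparc were 2-fold or more lower, and Lama4 and Hspg2 were within 2-fold. The 5 of 10 higher genes stand beside 27.2% of the 9115 genes that reached 10 CPM in at least 1 library, and the 3 of 10 lower genes beside 12.5%. All 5 higher genes were also at least 4-fold higher, against 10.6% of all genes, and 2 of the lower genes, Lama2 and Sparc, were at least 4-fold lower, against 5.73%. Col4a2 and Lamc1 were only just past 4-fold. The median log2 ratio of cultured over primary CPM was 1.10 over the 10 genes and 0.37 over all 9115.

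**Figure D1:**
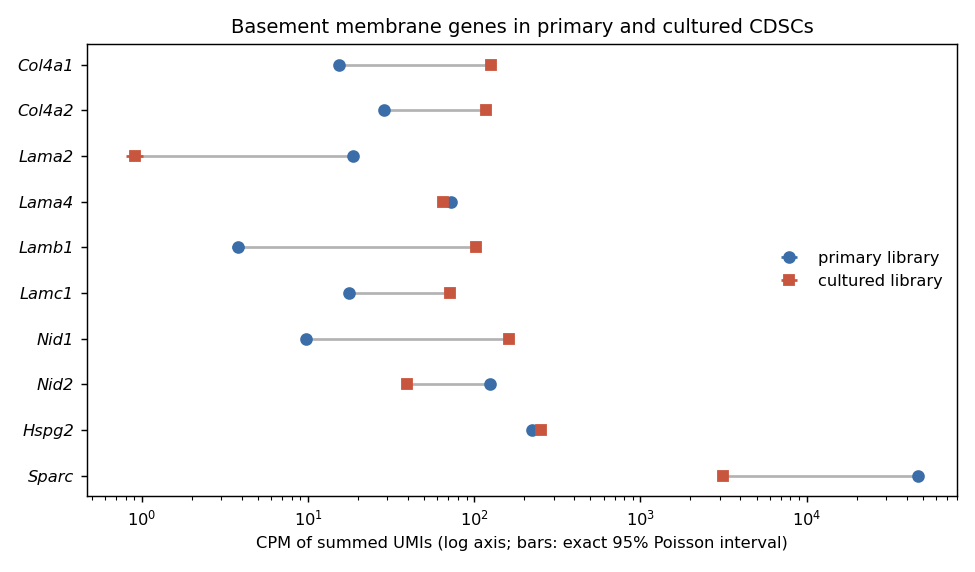
Level of each of the 10 genes in the primary library (blue circles) and the cultured library (red squares), in CPM of summed UMIs on a log axis. Error bars are exact 95% Poisson intervals and mostly lie within the symbols. Lamb1, Nid1, Col4a1, Col4a2 and Lamc1 lie to the right in culture, Lama2, Sparc and Nid2 lie to the left, and Lama4 and Hspg2 nearly coincide.

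Both collagen IV chains were higher in cultured CDSCs. Their products assemble into the α1α1α2 trimer, the form of collagen IV found in nearly all basement membranes. Col4a1 had 2107 counts, or 15.4 CPM (interval 14.7 to 16.0), in primary CDSCs and 41517 counts, or 126 CPM (125 to 127), after culture. It was 8.19-fold higher, a log2 ratio of 3.03 (2.97 to 3.10), and 5.29% of the 9115 genes had a larger ratio. Col4a2 had 3904 counts, or 28.5 CPM (27.6 to 29.4), in primary CDSCs and 39123 counts, or 119 CPM (117 to 120), after culture. It was 4.16-fold higher, a log2 ratio of 2.06 (2.01 to 2.11).

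The difference was thus larger for Col4a1 than for Col4a2, and the intervals of their log2 ratios did not overlap. Col4a1 made up 35.1% (33.8% to 36.3%) of the counts of the pair in the primary library and 51.5% (51.1% to 51.8%) in the cultured library. UMIs of the 3′ assay were not scaled by transcript length, so such a share is read only as a change between the libraries, not as a ratio of the chains. A minority of cells carried much of the primary signal, as described below. In the primary chondrocyte-like cells alone Col4a1 was at 9.62 CPM (9.10 to 10.2), and the log2 ratio of all cultured cells over these cells was 3.71.

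The laminin chains were split. Lamb1 and Lamc1, the β1 and γ1 chains that are shared by many laminin trimers, were both higher in culture. Lamb1 had 521 counts, or 3.80 CPM (3.48 to 4.14), in primary CDSCs and 33835 counts, or 102 CPM (101 to 104), after culture. It was 27.0-fold higher, a log2 ratio of 4.75 (4.63 to 4.88), the largest of the 10 genes. Lamc1 had 2402 counts, or 17.5 CPM (16.8 to 18.2), in primary CDSCs and 23471 counts, or 71.1 CPM (70.2 to 72.0), after culture. It was 4.06-fold higher, a log2 ratio of 2.02 (1.96 to 2.08).

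The α chains carry the binding sites for integrins and dystroglycan and give each trimer its tissue character. Lama2 encodes the α2 chain of muscle and peripheral nerve laminin, whose loss causes muscular dystrophy. It had 2570 counts, or 18.7 CPM (18.0 to 19.5), in primary CDSCs and 299 counts, or 0.906 CPM (0.806 to 1.01), after culture. It was 20.7-fold lower in culture, a log2 ratio of -4.37 (-4.55 to -4.20), and 1.90% of the 9115 genes had a lower ratio. Lama4 encodes the α4 chain, typical of vessels, fat and other mesenchymal tissue. It had 9990 counts, or 72.8 CPM (71.4 to 74.3), in primary CDSCs and 21373 counts, or 64.7 CPM (63.9 to 65.6), after culture, which gave a log2 ratio of -0.17 (-0.20 to -0.14).

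Of the 2 α chains examined, Lama4 therefore gave 79.5% (78.8% to 80.2%) of the counts in primary CDSCs and 98.6% (98.5% to 98.8%) in cultured CDSCs. This followed from the lower Lama2 level, since Lama4 itself stayed within 2-fold. The α, β and γ chains did not change in proportion to each other: β1 and γ1 were higher while α2 was lower and α4 was close to its primary level.

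The nidogens differed in opposite directions. Nid1 and Nid2 encode related glycoproteins that bind both laminin γ1 and collagen IV and can partly replace each other. Nid1 had 1325 counts, or 9.66 CPM (9.15 to 10.2), in primary CDSCs and 53552 counts, or 162 CPM (161 to 164), after culture. It was 16.8-fold higher, a log2 ratio of 4.07 (3.99 to 4.15). Nid2 had 17172 counts, or 125 CPM (123 to 127), in primary CDSCs and 12993 counts, or 39.4 CPM (38.7 to 40.0), after culture. It was 3.18-fold lower, a log2 ratio of -1.67 (-1.70 to -1.64).

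Nid1 accordingly made up 7.16% (6.80% to 7.54%) of the nidogen counts in primary CDSCs and 80.5% (80.2% to 80.8%) in cultured CDSCs. The 3′ end of Nid2 overlaps Rtraf on the opposite strand, which had 426 CPM in primary and 322 CPM in cultured CDSCs. Whether the counting used strand was not given in the sources used here, so counts of Nid2 could include reads of Rtraf, and the share of such reads was not tested. The 3′ ends of Col4a1 and Lama2 likewise overlap the antisense genes Gm15418 and Gm48084, which were not among the genes measured.

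**Figure D2:**
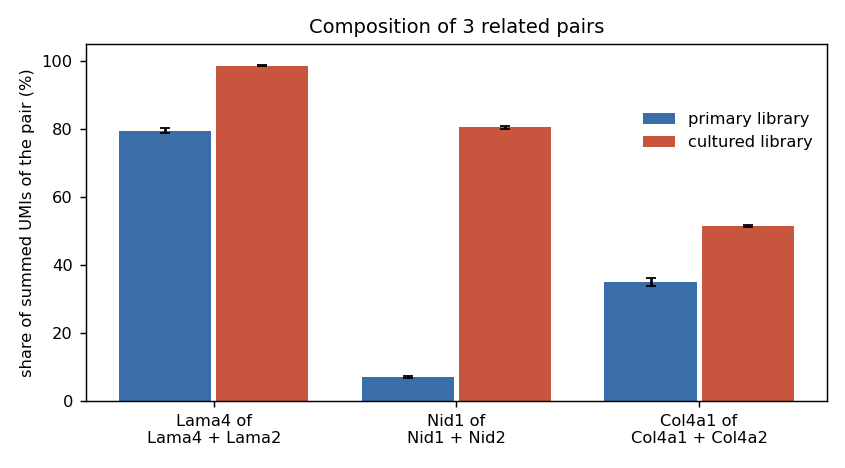
Share of the summed UMIs of 3 pairs of related genes given by the first gene of the pair, in percent, in the primary (blue) and cultured (red) library, with exact 95% binomial intervals. The Nid1 share went from 7.16% to 80.5%, the Lama4 share from 79.5% to 98.6% and the Col4a1 share from 35.1% to 51.5%.

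Perlecan was nearly level. Hspg2 had 30598 counts, or 223 CPM (221 to 226), in primary CDSCs and 83650 counts, or 253 CPM (252 to 255), after culture. Its log2 ratio was 0.18 (0.16 to 0.20), and this changed sign to -0.01 under trimmed mean of M values (TMM) scaling, which moved the median log2 ratio of all genes by -0.20. No direction is therefore given for Hspg2.

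Sparc had 6405023 counts, or 4.67% of all UMIs (46701 CPM), in the primary library and 1037874 counts, or 0.314% of all UMIs (3144 CPM), in the cultured library. It was 14.9-fold lower, a log2 ratio of -3.89 (-3.90 to -3.89). Sparc was detected in almost every cell of both libraries. After each cell had been thinned to 5000 UMIs, it was detected in 10958 of 10959 primary and 4530 of 4543 cultured cells (99.7%), but with medians of 226 and 14 UMIs per cell. In the primary library Sparc and Col2a1, the main cartilage collagen, were the 2 genes above 1% of UMIs, and Col2a1 went from 5.33% to 0.0490%. Such abundant genes lower the CPM of all others in the primary library. Totals without the genes above 1% of UMIs in either library moved the median of all genes by -0.14, and left Col4a2 at a log2 ratio of 1.91 and Lamc1 at 1.88, under 4-fold.

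Detection per cell was compared at 5000 UMIs, because cultured cells had more UMIs per cell. The thinned shares cover the 10959 primary and 4543 cultured cells with at least 5000 UMIs. Shares before thinning cover all kept cells, including 787 primary and 795 cultured cells under 5000 UMIs, so the 2 kinds of share differ in cells as well as depth. For 7 of the 10 genes a larger percentage of cultured than of primary cells carried a UMI, which was also so for 65.1% of the 9115 genes. Nid1 gave a UMI in 4.54% (4.16% to 4.95%) of primary cells, against 50.2% (48.8% to 51.7%) of cultured cells, from 9.57% and 84.2% before thinning. Lamb1 was detected in 1.72% (1.48% to 1.98%) and 38.2% (36.8% to 39.6%), from 3.59% and 81.0% before thinning. Col4a1 was detected in 4.01% (3.65% to 4.39%) and 37.0% (35.6% to 38.4%), from 8.30% and 73.0% before thinning.

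At this depth these 3 genes were thus detected in a small minority of primary cells and in a larger share of cultured cells. Detection depends on the level of a gene, and primary Nid1 and Lamb1 had means of 0.0485 and 0.0192 UMIs per cell. The shares therefore do not give the number of cells that express a gene. Col4a2 went from 10.7% to 39.0% (20.9% and 77.4% before thinning) and Lamc1 from 7.09% to 29.1% (14.3% and 77.0%). Lama2 gave a UMI in 5.95% (5.51% to 6.41%) of primary cells, against 0.726% (0.501% to 1.02%) of cultured cells, from 11.2% and 3.69% before thinning. Nid2 was detected in 41.1% (40.2% to 42.0%) and 16.5% (15.5% to 17.6%), whereas its unthinned shares were 61.3% and 63.6%. For Nid2 the library with the larger share therefore differed between the thinned and unthinned shares, which also differ in the cells they cover.

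Lama4 gave a UMI in 25.4% (24.6% to 26.3%) of primary cells, against 25.6% (24.4% to 26.9%) of cultured cells after thinning, with overlapping intervals, although the unthinned shares were 42.7% and 72.6%. Hspg2 was detected in 62.5% (61.6% to 63.4%) and 68.2% (66.8% to 69.5%), from 81.5% and 87.4% before thinning. Free RNA can give UMIs in cells that do not express a gene. In 9 haematopoietic-like cultured cells (median 35946 UMIs), led by Pf4 and Lyz2 and thinned in the same way, Col4a1 and Nid1 were each detected in 2 cells (22.2%, 2.81% to 60.0%), Lamb1 in 1 (11.1%, 0.281% to 48.2%), Lama4 and Hspg2 in 0 (0% to 33.6%) and Sparc in 6. With 9 cells these intervals include the shares of all cultured cells for Col4a1, Nid1, Lamb1 and Lama4, and lie below that of Hspg2. Lamc1 was detected in 4 of the 9 (44.4%, 13.7% to 78.8%), above its share of all cultured cells, which this interval also includes. The shares of Col4a1, Nid1, Lamb1, Lama4 and Lamc1 are therefore not separated from background here. Whether the 9 cells themselves express these genes was not tested. No primary cluster was named haematopoietic-like by the rule used, although 7 unnamed primary cells with endothelial markers were led by the mast cell genes Cma1, Mcpt4 and Cpa3.

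**Figure D3:**
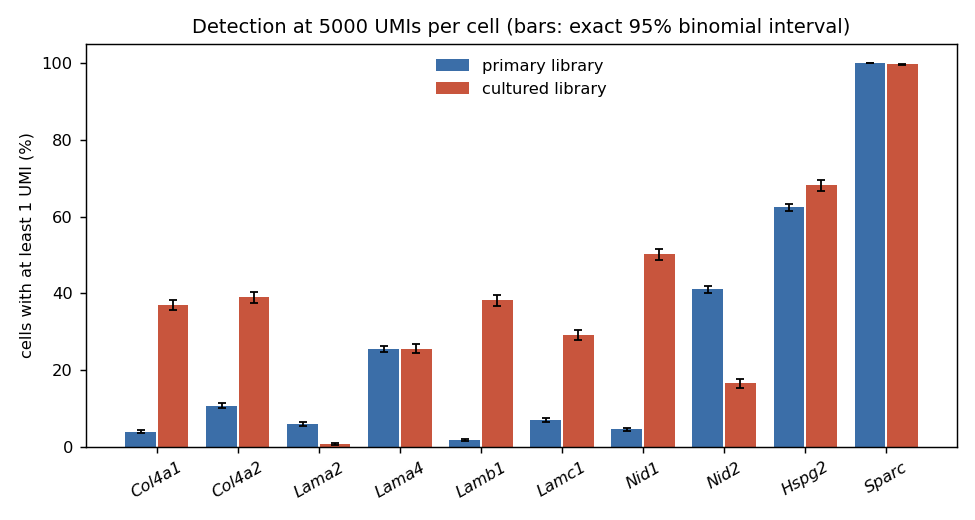
Percentage of cells with at least 1 UMI of each gene after thinning to 5000 UMIs per cell, in 10959 primary (blue) and 4543 cultured (red) cells, with exact 95% binomial intervals. Nid1, Lamb1, Col4a1, Col4a2 and Lamc1 were detected in more cultured cells, Lama2 and Nid2 in fewer, and the intervals of Lama4 overlap.

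Clusters were made within each library without the 10 genes and without the other basement membrane and receptor genes described below. In the primary library 11457 of 11746 cells, in 9 clusters, were chondrocyte-like by abundance of chondrocyte markers. The other 289 cells, 1.91% of primary UMIs, were led by Col1a1 and Postn. They comprised 201 mesenchymal fibroblast-like, 19 endothelial-like, 9 smooth muscle and pericyte-like and 60 unnamed cells. These 289 cells gave 38.6% of all Col4a1 counts in the primary library, 19.8% of Lamb1, 15.6% of Nid1, 15.2% of Col4a2 and 9.08% of Lamc1. They gave 5.99% of Lama2, 3.66% of Lama4, 2.18% of Hspg2, 1.30% of Sparc and 0.932% of Nid2 counts.

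The 5 genes that were higher in culture were thus the 5 to which these few primary cells contributed most, and Nid2 and Sparc were below the 1.91% that the cells held of all UMIs. In the 19 endothelial-like cells Col4a1 was at 1861 CPM (1662 to 2077) and Col4a2 at 1264 CPM (1101 to 1444), while Lama2 had 0 counts (0 to 21.6 CPM). In the 9 smooth muscle and pericyte-like cells Col4a1 was at 1172 CPM (966 to 1409) and Lama2 at 124 CPM (64.3 to 217). In the 201 mesenchymal fibroblast-like cells Col4a1 was at 84.3 CPM (71.6 to 98.6) and Nid1 at 64.3 CPM (53.3 to 77.0).

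Vascular, mural and fibroblast markers did not move alike between the libraries. The endothelial list summed to 28.3 CPM before and 29.2 CPM after culture, with 1 and 2 of 10 markers at 10 CPM or more and Tie1 at 0 after culture. The smooth muscle and pericyte list summed to 338 and 2561 CPM, with 4 and 3 of 10 at 10 CPM or more, and the mesenchymal fibroblast list to 1191 and 1851 CPM, with 6 of 10 in each. No other marker of these 3 lists was at 0. With the endothelial-like, smooth muscle and pericyte-like and haematopoietic-like cells left out of both libraries, and the fibroblast-like and unnamed cells kept, the log2 ratio of Col4a1 was 3.35 and that of Col4a2 2.16. With the primary chondrocyte-like cells alone against all cultured cells they were 3.71 and 2.27. The part of these cell types in the differences was not tested.

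Among the chondrocyte-like clusters, Lama2 varied most. It was at 88.7 CPM in the 773 cells led by Slc35f1, Runx3 and Wnt5b and at 2.87 CPM in the 2277 cells led by Tll1, Clu and Ppargc1a, a 30.9-fold range. Lama4 ran the other way between these clusters, with its lowest level, 41.3 CPM, in the first and its highest, 102 CPM, in the second. Collagen IV was highest in the 1507 cells led by Acta2, Aoc2 and Grem1, with Col4a1 at 20.1 CPM and Col4a2 at 39.9 CPM. Nid2 ranged from 66.4 to 225 CPM, Hspg2 from 179 to 374 CPM and Sparc from 29426 to 57314 CPM, so the last was within 2-fold in all 9 clusters.

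Lamb1 and Nid1 were low in every chondrocyte-like cluster, from 1.39 to 4.56 CPM and from 4.09 to 11.3 CPM. In the cultured library their lowest levels were 72.0 and 115 CPM among the 7 clusters that had at least 100 cells and were not shallow. The ranges of these 2 genes over clusters therefore did not overlap between the libraries. The same held for Col4a1, at 4.95 to 20.1 CPM in the primary chondrocyte-like clusters and 65.1 to 349 CPM in the cultured clusters, for Col4a2, at 15.4 to 39.9 and 64.2 to 263 CPM, and for Lamc1, at 9.08 to 27.9 and 41.6 to 95.3 CPM. At resolution 1.0 the cultured ranges of all these genes were wider, 5.33-fold in place of 2.29-fold for Lamc1. Overlap between the libraries was not examined at that resolution. Clusters are not replicates. Pooled, the 289 other primary cells lay within the cultured ranges for Col4a1, Col4a2 and Lamc1, at 310, 226 and 83.2 CPM. They lay below the cultured ranges for Lamb1 and Nid1, at 39.3 and 79.0 CPM. This pool mixed cell types whose Col4a1 levels, given above, were far apart.

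In the cultured library 5225 of 5338 cells stayed unnamed. Collagen IV and Nid1 were highest in the 180 cells led by Ptn and Thy1, with Col4a1 at 349 CPM, Col4a2 at 263 CPM and Nid1 at 222 CPM. They were lowest in the 1045 cells led by Klk8 and H2bc4, with 65.1, 64.2 and 115 CPM. The same 180 cells had Lama2 at 6.33 CPM, 19.6-fold above the lowest cluster.

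Among the other laminin genes, Lamc1 was highest, at 95.3 CPM, in the 985 cells led by Gpc3 and Sorbs2. Lama4 and Lamb1 were highest, at 126 and 179 CPM, in the 475 cells led by Mmp13 and Csmd1, and both were lowest, at 24.5 and 72.0 CPM, in the 231 cells led by Nr5a2 and Barx1. Hspg2 and Sparc varied by 1.40-fold and 1.42-fold over the cultured clusters. Dividing cells, led by Cenpf and Mki67, had Col4a1 at 149 CPM and Hspg2 at 224 CPM, its lowest level. A cluster of 864 cells with a median of 1275.5 UMIs was left out of these ranges.

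**Figure D4:**
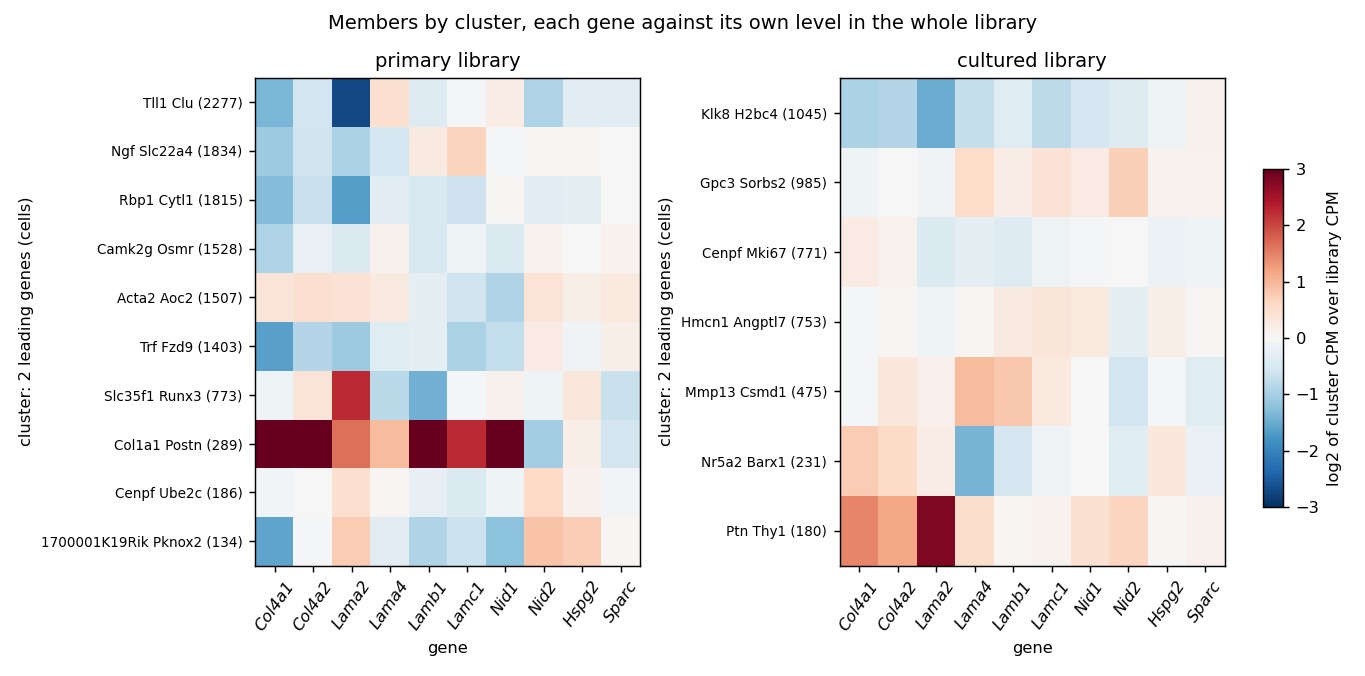
Level of each gene in each cluster with at least 100 cells that was not shallow, relative to its level in the whole library, as log2 of the CPM ratio (red higher, blue lower, colour limits at -3 and 3, beyond which the colour no longer changes). The shallow cultured cluster of 864 cells is not drawn. Clusters are named by 2 leading genes and cell number. Primary Col4a1, Col4a2, Lamb1 and Nid1 stand out in the 289 cells led by Col1a1 and Postn, Lama2 in the 773 cells led by Slc35f1 and Runx3, and cultured Lama2 and collagen IV in the 180 cells led by Ptn and Thy1.

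Across single cells, the collagen IV pair had the highest correlation of the 45 pairs of members in each library. Pearson's r of log counts at 5000 UMIs was 0.27 over 10959 primary cells and 0.34 over 4543 cultured cells, and 0.62 over 4156 cultured cells at 20000 UMIs. The cells of a library share capture and depth, and r depends on the level of a gene, so the values are descriptions. All cell types of a library were pooled. At 5000 UMIs Col4a1 was detected in 46.8% of the mixed primary cluster led by Col1a1 and Postn, which held the endothelial-like cells, against 3.27% of chondrocyte-like cells. The part of the mixture of cell types in r was not tested. The next pairs in cultured cells at 20000 UMIs were Col4a2 with Nid1 (0.23) and Col4a1 with Nid1 (0.20). At 5000 UMIs, 4 primary and 5 cultured pairs were above 0.1.

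The genes most like Col4a1 by this measure, among those detected in at least 5% of the cells of a library, differed between the libraries. In primary cells they were Tmsb4x (0.31), an actin-binding peptide, Col4a2 (0.27), Ifitm3 (0.19), Vim (0.18), the intermediate filament of mesenchymal cells, and Marcks (0.16), among 7477 genes. In cultured cells they were Col4a2 (0.34), then the contractile genes Cnn1 (0.26), Tagln (0.26) and Acta2 (0.23), with Lpp (0.24) between them, among 8364 genes. Sparc was among the least like in primary cells, with r of -0.13. The genes compared were not the same in the libraries, because of the limit on detection. Lamb1 and Nid1, detected in 1.72% and 4.54% of primary cells, were compared in cultured cells only. Col4a1 itself was detected in 4.01% of primary cells, so genes confined to the same few cells could not be named. The part of this limit in the difference between the libraries was not tested.

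The list of 30 other basement membrane components was likewise divided. Of these, 12 were higher and 8 lower in culture by 2-fold or more, with a median log2 ratio of 0.60. Of the 17307 genes with more than 3 counts in either library, 4594 were higher and 3628 lower, with a median of 0.21. Among the 12 that reached 10 CPM, 5 were higher and 3 lower, beside 27.2% and 12.5% of the 9115 genes. Their median was 0.86, beside 0.37 for the 9115 genes. Tinagl1, a matricellular protein of the tubulointerstitial nephritis antigen family, went from 2.01 to 86.5 CPM (log2 ratio 5.43). Npnt, the integrin α8 ligand nephronectin, went from 7.47 to 98.8 CPM (3.73). Col4a5, the X-linked α5 chain of collagen IV, went from 5.62 to 55.2 CPM (3.30).

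These were all higher in culture, as were Hmcn1 (hemicentin), from 5.59 to 51.7 CPM (log2 ratio 3.21), and Pxdn (peroxidasin, which crosslinks collagen IV), from 17.2 to 45.4 CPM (1.40). The lower genes included both relatives of Sparc with large counts. Sparcl1 went from 283 to 1.24 CPM (log2 ratio -7.84) and Smoc2 from 335 to 21.1 CPM (-3.99), whereas Smoc1 was within 2-fold (0.25). Col15a1, a collagen of the outer basement membrane zone, went from 10.9 to 0.176 CPM (-5.96).

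Lamb2, the β2 chain that can take the place of β1, had 35.0 CPM before and 46.1 CPM after culture, which is a log2 ratio of 0.39 beside the 4.75 of Lamb1. Agrn (agrin) and Fbln1 (fibulin 1) were also within 2-fold, at 0.81 and 0.91.

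Of 15 receptors that bind basement membranes, 8 were at least 2-fold higher in the cultured library and 1 was lower. Of the 17307 genes with more than 3 counts in either library, these counts were 4594 and 3628. Among the 11 that reached 10 CPM, 6 were higher and 1 lower, beside 27.2% and 12.5% of the 9115 genes. The median log2 ratio was 1.02, which was also the median of these 11, beside 0.21 for the 17307 genes and 0.37 for the 9115. Itgb1, the β1 chain of the collagen and laminin integrins, went from 163 to 679 CPM (log2 ratio 2.06). Its collagen-binding partner Itga1 went from 13.6 to 86.8 CPM (2.67), and its laminin-binding partner Itga3 from 1.33 to 35.3 CPM (4.72).

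Itga6, another laminin-binding partner, was the receptor that was lower, from 80.6 to 26.1 CPM (-1.63). The laminin-binding α chains thus differed in direction. Sdc2 (syndecan 2) went from 100 to 644 CPM (2.68). Dag1 (dystroglycan, a receptor for laminin α2, agrin and perlecan) was at 56.8 and 115 CPM (1.02), and Ddr2 (a collagen receptor) at 116 and 244 CPM (1.07), and both were under 2-fold with TMM scaling, which left 6 of the 15 receptors higher, with 22.2% of the 9115 genes higher and 15.2% lower under that scaling. Ddr1 (0.96), Sdc3 (0.64), Sdc1 (0.21) and Sdc4 (-0.25) were within 2-fold.

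**Figure D5:**
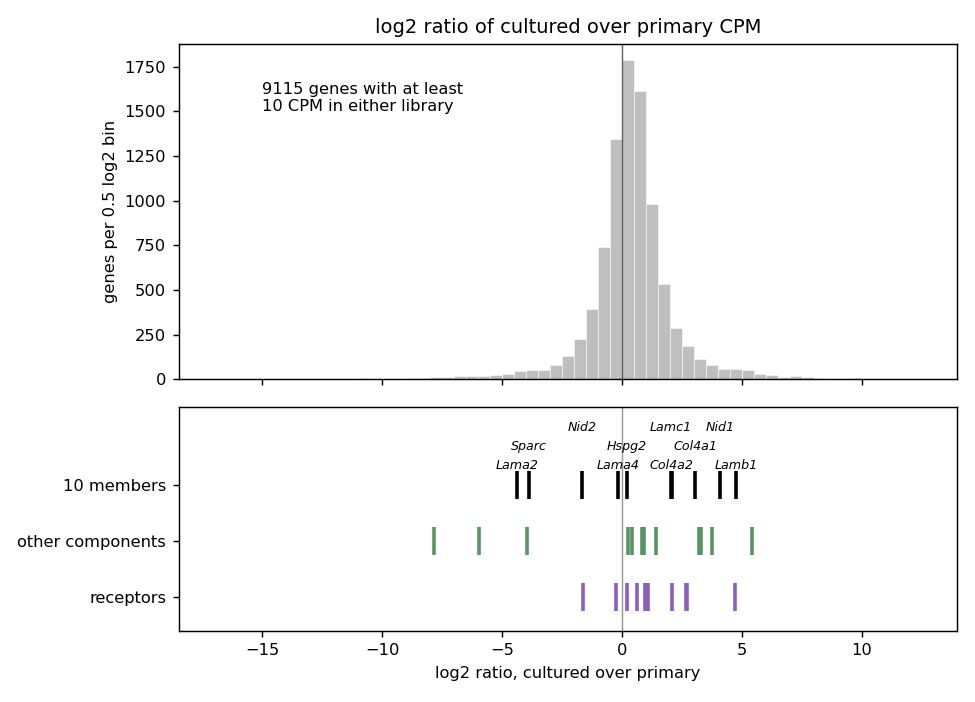
Log2 ratio of cultured over primary CPM, shared horizontal axis. Upper panel, the number of genes per bin of 0.5 for the 9115 genes that reached 10 CPM in at least 1 library; lower panel, 1 tick per gene for the 10 members (named), the 12 other components and the 11 receptors with at least 10 CPM. The members spread from -4.37 (Lama2) to 4.75 (Lamb1), with Hspg2 (0.18, or -0.01 with TMM scaling) near 0.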

How the data were processed

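Per the labels, 1 library each of primary and cultured CDSCs was made with a 10x Genomics 3′ kit and processed by the authors with Cell Ranger 7.0.0. Their notes name the builds mm10, GRCm38 and GRCm39, so the gene models counted may differ from those used here for coordinates. The annotation release was not given in the sources used here. The deposited values were raw UMI counts, whole numbers per gene and barcode with no normalisation. Here, barcodes were kept from 500 genes and 1000 UMIs upward, with mitochondrial genes at no more than 10% of UMIs, and counts were summed per library and scaled to CPM. A count of 3 was 0.0219 CPM (primary) or 0.00909 CPM (cultured). Counts under 3 were raised to 3 in log2 ratios, and a gene was called at 2-fold or 4-fold. Intervals were Poisson (levels), Clopper-Pearson (shares) or conditional binomial (ratios), and scripts were tested on simulated data. No test was run.

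Scrublet called 0 primary and 1 cultured doublets and had not worked, so no doublets were removed, and the cells of highest score (1118 and 461) were left out as an alternative. Each library was clustered with Leiden (leidenalg 0.10.2, scanpy 1.11.5) at resolution 0.5 with 20 neighbours in 10 components of 2000 variable genes. Clusters were named from marker lists, and mixed ones were clustered again at resolution 2.0, a value set after names had been seen, because resolution 1.0 had joined endothelial and mast cells. Other cell types were named when at least 3 of their markers had at least 50 CPM and a 4-fold excess. In addition, at least 1 of their markers had to be among the 10 leading genes of the cluster, with no other list holding more. The unnamed primary cells met the first condition but not the second. Clusters with fewer than 3 such markers that were not shallow were chondrocyte-like when 3 or more chondrocyte markers reached 1000 CPM. The genes named are the 10 members, genes of the 2 further lists with at least 10 CPM in either library, and the 5 genes of highest correlation with Col4a1 among those in at least 5% of cells. ZsGreen, Uty, Col2a1 and the overlapping genes were named for other reasons after values were seen. The members, lists and rules were chosen with earlier results of these data known. Alternatives were the cell filter, doublets, cell types, TMM scaling (edgeR 4.0.16), equal weight per cell, thinning and the filter on low genes. Coordinates came from a GENCODE annotation of GRCm38, and start windows from RefSeq.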

Additional observations from a re-analysis of the deposited data

How the results depend on the processing

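No paired analysis was possible because each group had 1 library, and for the same reason no replicate could be left out. The number of members at least 4-fold higher in the cultured library was 5, and was 3 under TMM scaling and 3 under totals without genes over 1% of UMIs, a setting added after seeing the data, because the scaling lowered every log2 ratio and took Col4a2 and Lamc1 under 4-fold. With genes under 10 CPM in both libraries left out, the other components at least 2-fold higher went from 12 to 5 and those lower from 8 to 3, since fewer genes were counted. Members at least 2-fold higher or lower stayed at 5 and 3 under every alternative run, and the receptor counts lay between 6 and 9 higher and at 1 lower. Under TMM scaling 22.2% of all genes were at least 2-fold higher and 15.2% lower. The sign of a member's log2 ratio changed for Hspg2 alone, to -0.01 under TMM scaling. The widest move was that of Col4a1, whose log2 ratio ran from 2.84 (TMM) to 3.71 (primary chondrocyte-like cells against all cultured cells, added after seeing the data). Members detected in a larger share of cultured cells numbered 7 at 5000 UMIs, 8 unthinned and 6 at 2000 UMIs. At cluster resolution 1.0 the ratio of highest to lowest cluster level was 39.1 in place of 62.7 for Col4a1 and 54.5 in place of 30.9 for Lama2 in the primary library, and 9.38 in place of 5.35 for Col4a1 and 5.33 in place of 2.29 for Lamc1 in the cultured library. The cause was not tested. Depth limits the statements on Lama2 in culture, where 299 counts carry the value, and on classes of 9 to 19 cells.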
